A study of Mus musculus with 12 samples.

Results

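Fucosyltransferases and the genes that supply their sugar donor were compared in proximal colon with and without epithelial *EPR*. The group held 10 genes, taken by symbol from a count table of 55376 genes. They were the fucosyltransferases *Fut2*, *Fut4*, *Fut8*, *Fut10* and *Fut11*, the protein O-fucosyltransferases *Pofut1* and *Pofut2*, the GDP-fucose synthesis genes *Gmds* and *Tsta3*, and the GDP-fucose transporter *Slc35c1*. All 10 passed the expression filter, as did 15952 genes in all. In *EPR* cKO colon 2 of the 10 fell: *Fut4* to 51.9% and *Fut8* to 71.8% of the *EPR* fl/fl level. Over all tested genes 2.46% were called at an adjusted p under 0.05, and 1.57% were called lower. The *Fut8* call held in only 6 of 12 fits that left out 1 library. Neither gene passed the stricter limits that the study used. The study itself named *Fut8* among mucin-modifying enzymes strongly reduced in its RNA-Seq. It also reported changed promoter contacts at *Fut8* in *EPR* cKO crypts. No member rose, and the donor supply genes and both protein O-fucosyltransferases did not pass the test.

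Fucose is added to glycans at the end of chains, at the base of N-linked chains, or directly to proteins. Each transfer uses GDP-fucose, which is made in the cytosol from GDP-mannose or from salvaged fucose. For transfer in the Golgi it is carried there by *Slc35c1*. In the intestine, terminal fucose on mucins and on the epithelial surface is a nutrient and an attachment site for bacteria. *Fut2* is the main enzyme for that linkage in the colon, *Fut4* builds Lewis-type structures on inner sugars of the chain, and *Fut8* is the enzyme of core fucose on N-glycans.

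RNA-Seq was carried out on whole proximal colon from 12 mice of C57BL/6 background, all 12 weeks old, of which 6 were *EPR* fl/fl and 6 *EPR* cKO. Both groups carry *EPR* alleles flanked by loxP sites, *EPR* fl/fl mice served as controls, and *EPR* cKO mice also carry CDX2P-NLS Cre. In that line a human *CDX2* promoter drives Cre in epithelial cells from the lower ileum to the colon, and recombination removes the promoter and exon 1 of *EPR*. Muscle, nerves, vessels, immune cells and fat were also in the tissue, and recombination in them was not measured here. *EPR*, a long noncoding RNA of epithelia that is listed as *Smim31*, went from 39.4 ± 14.5 to 0.132 ± 0.151 CPM (counts scaled to library size, mean ± SD, n = 6 per group), and its log2 fold change was −8.09 (SE 0.47, adjusted p = 1.61e-06). All 6 *EPR* cKO libraries lay below all 6 *EPR* fl/fl libraries for this gene. Total counts ran from 13093904 to 33211041 per library. One library, *EPR* cKO 1, stood apart in its tissue markers, and results that rest on it are given with and without it.

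Of the 2 members that fell, *Fut8* is shown with the sequence before one of its RefSeq start sites, the one nearest to the start of the counted gene. The 250 bases before that start site lie at chr12:77237854-77238103 on the forward strand of GRCm38.p6 (mm10), with the start site itself at position 77238104 and the counted gene running from 77238125 to 77476338. Capitals mark a CCAAT box read on the opposite strand.
*Fut8* upstream: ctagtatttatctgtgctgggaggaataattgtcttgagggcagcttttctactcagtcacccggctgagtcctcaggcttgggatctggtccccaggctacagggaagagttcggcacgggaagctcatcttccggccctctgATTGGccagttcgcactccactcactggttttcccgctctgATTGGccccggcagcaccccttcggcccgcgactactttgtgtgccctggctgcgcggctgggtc
The box occurs 2 times in this window, and 33.9% of 32841 windows of the same length before mouse start sites hold it on either strand. The window holds no TATAAA (12.4% of windows), no GGGCGG (32.7%) and no TTTATNG, the letters of a Cdx site (9.81%), with both strands searched and no overlap between these motifs and the boxes shown. Its GC content was 59.2% with 12 CpG, against medians of 52.4% and 6 over all windows. Windows before other *Fut8* start sites differed. The window at 77238489-77238738 held 1 GGGCGG, and that at 77388614-77388863 held 1 TTTATNG. The window before the *Fut4* start site had a GC content of 67.6%, 16 CpG and 0 matches to the 4 motifs, and is not printed because it lies in an annotated transcript leader. RefSeq windows were matched for 7 of the 10 members.

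Of the terminal fucosyltransferase genes, *Fut4* fell and *Fut2* did not pass the test. *Fut4* (chromosome 9, 14748320 to 14752393, reverse strand) encodes an enzyme that places fucose on N-acetylglucosamine within the chain, the linkage of Lewis X. Its lowest, median and highest levels were 46.1, 56.9 and 68.2 CPM in the controls, and 19.4, 31.8 and 32.96 CPM in *EPR* cKO. Every *EPR* cKO library lay below every *EPR* fl/fl library. The means were 55.7 ± 7.98 and 28.9 ± 5.55 CPM (SD, n = 6), and the fitted log2 fold change was −0.95 (SE 0.14, 95% interval −1.24 to −0.65, adjusted p = 0.00255). When each library was left out in turn, the log2 fold change of *Fut4* ran from −0.997 to −0.87, and its adjusted p-value from 0.000399 to 0.0108.

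*Fut2* (chromosome 7, 45648591 to 45666394, reverse strand) encodes the enzyme that caps terminal galactose with fucose in gut epithelium and forms the H structure. Its lowest, median and highest levels were 132, 154 and 172 CPM in the controls, and 87.1, 137 and 197 CPM in *EPR* cKO. The *EPR* cKO range enclosed the *EPR* fl/fl range at both ends. The log2 fold change was −0.16 (SE 0.16, 95% interval −0.50 to 0.18, adjusted p = 0.596), so that a fall as large as the estimate for *Fut4* lies outside the interval. The 3 genes whose log2 CPM was most like that of *Fut2* over the 12 libraries were *Asns* (Pearson r = 0.934), *Cd79b* (0.911) and *H13* (0.907). These values describe libraries that share depth and tissue make-up within each animal, and r was 0.931, 0.948 and 0.901 after group means were removed.

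Other terminal fucosyltransferase genes were low in this tissue. *Fut1*, which forms the same linkage as *Fut2*, was at 1.58 ± 0.600 CPM in control colon and 2.10 ± 0.388 CPM in *EPR* cKO (log2 fold change 0.41, SE 0.26, adjusted p = 0.422). *Fut7*, *Fut9* and *Sec1* lay below the filter and were not tested, with means of 0.104, 0.842 and 0.220 CPM in *EPR* fl/fl. *Fut2* shared 2.90% of its 50-base stretches with *Sec1*, so that few of its reads could be split between them, and *Fut4* shared 0%.

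Core fucosylation rests on 1 gene. *Fut8* (chromosome 12, forward strand) encodes the enzyme that adds fucose to the innermost N-acetylglucosamine of N-glycans, and its upstream sequence is printed above. Its lowest, median and highest levels were 73.6, 81.9 and 100.3 CPM in the controls, and 44.8, 61.7 and 68.8 CPM in *EPR* cKO. The groups did not overlap. The means were 83.7 ± 9.44 and 60.1 ± 8.21 CPM (SD, n = 6), and the fitted log2 fold change was −0.48 (SE 0.10, 95% interval −0.70 to −0.26, adjusted p = 0.0270). Whether this call passed 0.05 depended on which library was left out. *Fut8* was past an adjusted p of 0.05 in 6 of the 12 leave-one-out fits, and the adjusted p rose to between 0.0542 and 0.0897 without *EPR* fl/fl 3 or 4 or *EPR* cKO 2, 3, 4 or 5, while the log2 fold change stayed between −0.52 and −0.42 over the 12 fits. With total counts in place of TMM scaling the adjusted p was 0.0634.

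An antisense gene, *9530018F02Rik* (chromosome 12, 77236065 to 77238663, reverse strand), covers the first exon of *Fut8* and the printed sequence. Whether counting used the strand is not given in the sources used here, so that reads over this exon cannot be assigned to 1 strand. The antisense gene was at 2.20 ± 0.416 CPM in control colon and 1.83 ± 0.218 CPM in *EPR* cKO (log2 fold change −0.28, SE 0.17, adjusted p = 0.394), far below *Fut8*. Among all mouse transcripts, those of other genes shared 3.35% of the 50-base stretches of *Fut8* in the same reading direction. As reverse complement they shared 3.64%. These matches were sought in transcripts of any locus and do not measure antisense overlap at *Fut8*. The 3 genes most like *Fut8* over the 12 libraries were *Slc12a8* (Pearson r = 0.977), *P2rx4* (0.975) and *Rab3d* (0.973), and r was 0.933, 0.923 and 0.918 after group means were removed. Each of these genes was also lower in *EPR* cKO colon, by log2 values of −0.91, −0.58 and −0.57, at adjusted p-values of 0.0222, 0.0128 and 0.0186. They were picked by likeness to *Fut8* over both groups, which *Fut8* itself separates. Their falls therefore follow from the choice and are no separate result.

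Both members that fell are read against the background of all genes. At an adjusted p under 0.05, 2.46% of tested genes were called, 1.57% lower and 0.884% higher in *EPR* cKO. Members called numbered 2 lower and 0 higher of 10. Genes whose groups did not overlap with *EPR* cKO lower made up 1.47% of tested genes, and *Fut4* and *Fut8* were the 2 such members. At the stricter limits on adjusted p and fold change that the study used, 0.169% of genes were called and 0 members. The median log2 fold change was −0.08 over the 10 members and 0.02 over all tested genes. Of the 392 genes called, 251 were lower (64.03%), and with total counts in place of TMM scaling 247 of 286 were lower (86.4%).

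**Figure D1:**
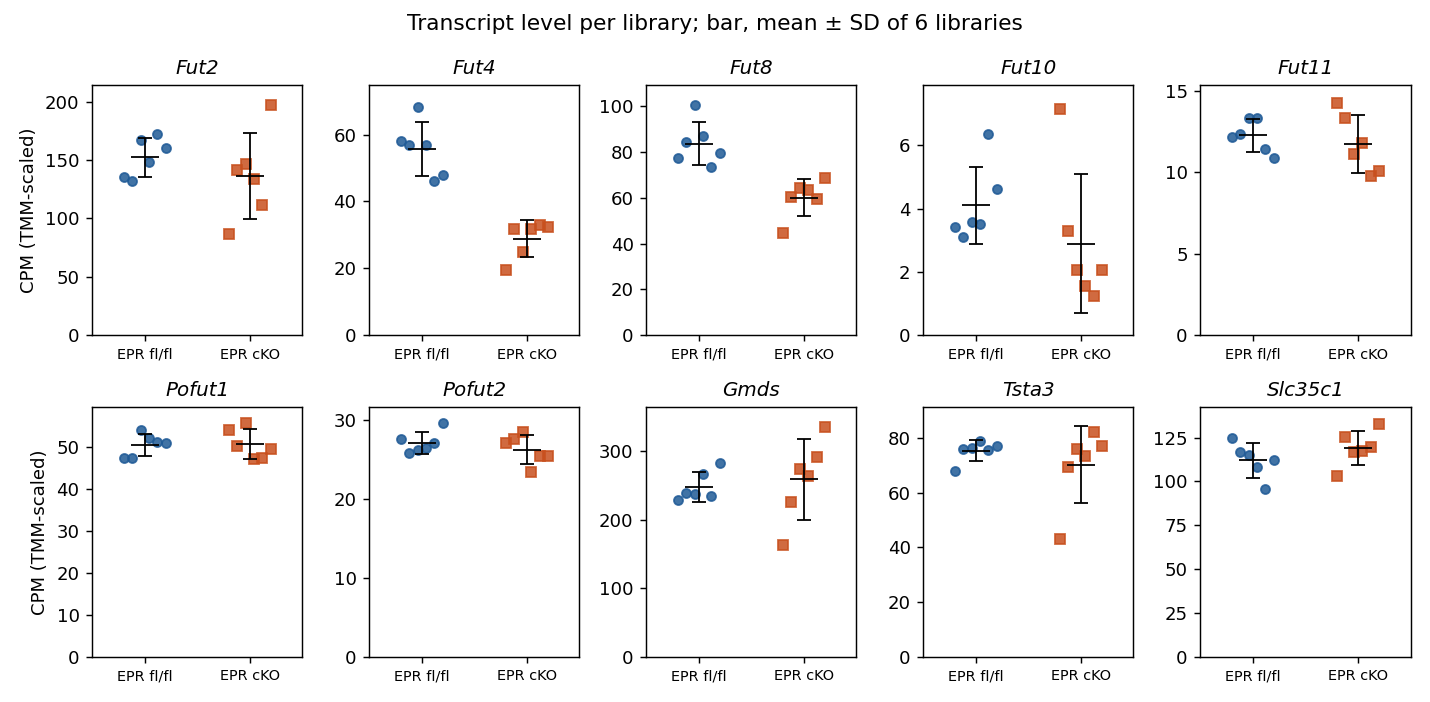
TMM-scaled CPM of each of the 10 genes in each library (points), by genotype, with mean and SD of 6 libraries as bars and a linear axis from 0. *Fut4* (lowest *EPR* fl/fl 46.1, highest *EPR* cKO 32.96 CPM) and *Fut8* (73.6 and 68.8 CPM) are the panels in which the genotypes do not overlap.

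Neither protein O-fucosyltransferase gene passed the test. *Pofut1* (chromosome 2, 153241533 to 153270247) encodes the enzyme that places fucose on epidermal growth factor-like repeats of Notch receptors. Its level ran from 47.4 to 54.2 CPM in control colon and from 47.2 to 55.9 CPM in *EPR* cKO, with medians of 51.2 and 50.1 CPM. The log2 fold change was 0.01 (SE 0.06, 95% interval −0.13 to 0.14, adjusted p = 0.971), the narrowest interval of the 10 genes. *Pofut2* (chromosome 10, 77259218 to 77269575), whose enzyme acts on thrombospondin repeats, ran from 25.8 to 29.6 CPM and from 23.4 to 28.5 CPM, and its log2 fold change was −0.05 (95% interval −0.19 to 0.10, adjusted p = 0.726). The log2 ratio of *Pofut1* to *Pofut2* was 0.898 ± 0.108 in the controls and 0.951 ± 0.0555 in *EPR* cKO (two-sided exact permutation p = 0.301, adjusted p = 0.401 over 4 ratios).

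The genes that extend O-fucose were not called either. *Lfng*, *Mfng* and *Rfng* encode the Fringe enzymes that lengthen O-fucose on Notch, and *B3glct* adds glucose to O-fucose on thrombospondin repeats. Of these 4 genes 0 passed the test in either direction, with log2 fold changes of −0.16, −0.84, 0.18 and 0.05. *Mfng* had the lowest counts of them (5.84 ± 1.55 and 3.28 ± 1.81 CPM, SE of the log2 fold change 0.33, adjusted p = 0.206).

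*Fut10* and *Fut11* are relatives of the Lewis-type enzymes whose acceptors are less well known. *Fut10* (chromosome 8, 31187331 to 31261738) had lowest, median and highest levels of 3.11, 3.54 and 6.36 CPM in the controls, and 1.24, 2.06 and 7.14 CPM in *EPR* cKO. The highest *EPR* cKO value came from *EPR* cKO 1, and the next was 3.30 CPM. The log2 fold change was −0.51 (SE 0.38, 95% interval −1.34 to 0.33, adjusted p = 0.500) with all libraries and −1.02 (adjusted p = 0.0193) without *EPR* cKO 1. Summed smooth muscle markers were also highest in *EPR* cKO 1 (8294 CPM, against 918 to 2416 CPM in the other *EPR* cKO libraries). With a tissue composition score as a covariate, the mean level of epithelium markers minus that of smooth muscle markers, the log2 fold change of *Fut10* turned to 0.063 (adjusted p = 0.925) with all libraries and to 0.16 (0.960) without *EPR* cKO 1. *Fut11* (chromosome 14, 20694968 to 20701016) ran from 10.9 to 13.4 CPM and from 9.80 to 14.3 CPM (log2 fold change −0.07, SE 0.11, adjusted p = 0.760).

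Of the GDP-fucose supply genes none was called with all 12 libraries and no covariate. *Gmds* (chromosome 13, 31819579 to 32338740) encodes GDP-mannose dehydratase, the first step from GDP-mannose to GDP-fucose. Its lowest, median and highest levels were 229, 238 and 283 CPM in the controls, and 163, 269 and 335 CPM in *EPR* cKO. The *EPR* cKO libraries spread on both sides of the controls. Its log2 fold change was 0.06 (SE 0.14, 95% interval −0.24 to 0.36, adjusted p = 0.833).

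*Tsta3* (chromosome 15, 75924676 to 75929832), named *Gfus* in later annotation, encodes the enzyme that finishes GDP-fucose. Its lowest, median and highest levels were 67.8, 76.2 and 78.9 CPM in the controls, and 43.2, 74.8 and 82.3 CPM in *EPR* cKO. *EPR* cKO 1 was again the lowest library, and the other 5 began at 69.5 CPM. The log2 fold change was −0.10 (SE 0.12, 95% interval −0.37 to 0.17, adjusted p = 0.685), and it was −0.01 without *EPR* cKO 1 (adjusted p = 0.930). With the composition score as a covariate *Tsta3* was at −0.40 (0.0268) over all 12 libraries and at −0.15 (0.818) without *EPR* cKO 1. The log2 ratio of *Tsta3* to *Gmds* was −1.72 ± 0.0962 in the controls and −1.87 ± 0.140 in *EPR* cKO (two-sided exact permutation p = 0.0411, adjusted p = 0.0996 over 4 ratios), which did not pass the correction.

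*Slc35c1* (chromosome 2, 92452764 to 92460538) encodes the transporter that brings GDP-fucose into the Golgi. It ran from 95.4 to 125 CPM with a median of 113 CPM in the controls, and from 103 to 133 CPM with a median of 119 CPM in *EPR* cKO. Its log2 fold change was 0.09 (SE 0.08, 95% interval −0.07 to 0.25, adjusted p = 0.541). Its log2 ratio to *Gmds* was −1.15 ± 0.189 and −1.09 ± 0.272 (exact permutation p = 0.675, adjusted p = 0.675). *Slc35c2*, a related carrier, was at 16.3 ± 1.495 and 16.4 ± 1.501 CPM (log2 fold change 0.01, adjusted p = 0.971).

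The routes that feed this supply were likewise without calls. Of the 5 genes that make GDP-mannose (*Mpi*, *Pmm1*, *Pmm2*, *Gmppa* and *Gmppb*), 0 passed the test, 4 lay above 0 and the median log2 fold change was 0.11. *Pmm1*, a phosphomannomutase, was nearest to the threshold at 31.9 ± 2.99 and 38.2 ± 4.33 CPM (log2 fold change 0.26, SE 0.09, adjusted p = 0.150). Of the 3 salvage genes, *Fuk* (fucose kinase), *Fpgt* and *Fuom*, 0 passed, with log2 fold changes from 0.04 to 0.10. The lysosomal fucosidase gene *Fuca1* and its relative *Fuca2* were at 0.02 and −0.02.

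**Figure D2:**
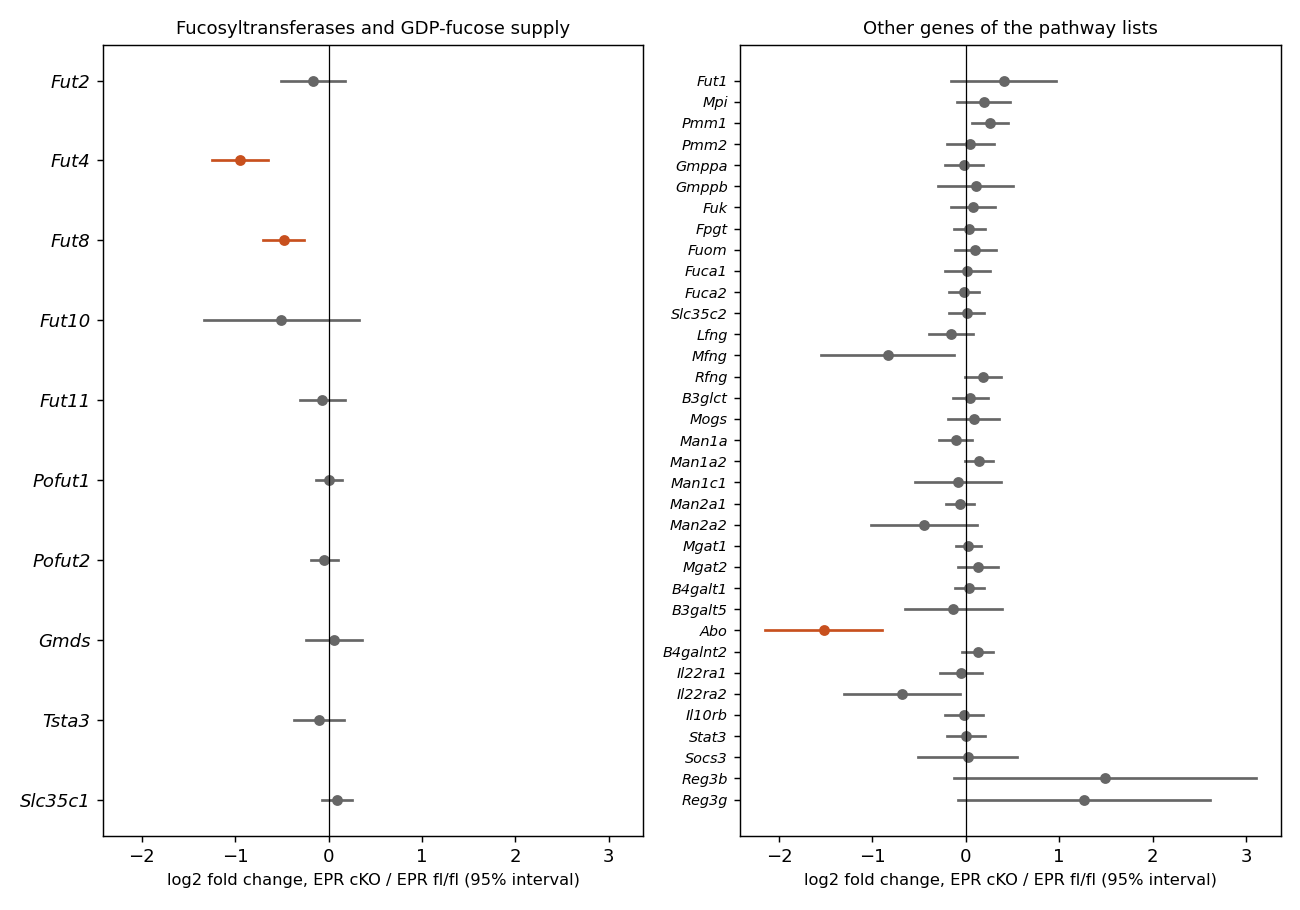
Log2 fold changes of *EPR* cKO over *EPR* fl/fl with 95% intervals for the 10 genes (left) and the tested genes of the other pathway lists (right), coloured where the adjusted p was under 0.05. *Fut4* (−0.95) and *Fut8* (−0.48) on the left and *Abo* (−1.52) on the right are coloured, all below 0.

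Neighbouring steps were described by lists. N-glycan processing must reach the product of *Mgat1* before *Fut8* can act. Of 8 N-glycan processing genes around this step, not all of them before it, 0 passed the test. In log2 fold change 4 were above and 4 below 0, with a median of −0.02. *Mgat1* was at 75.6 ± 3.24 and 77.0 ± 6.05 CPM (log2 fold change 0.03, adjusted p = 0.836). Of 4 genes that build or cap the chains next to terminal fucose, 1 fell and 0 rose. That gene was *Abo* (chromosome 2, 26842503 to 26864979), which encodes the transferase that adds a blood group sugar to the fucosylated H structure made by *Fut2*.

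*Abo* had lowest, median and highest levels of 4.02, 5.59 and 9.68 CPM in the controls, and 0.769, 2.39 and 2.92 CPM in *EPR* cKO, with no overlap. The means were 6.11 ± 1.96 and 2.13 ± 0.775 CPM, with a difference of −1.52 on the log2 scale (SE 0.29, adjusted p = 0.0157). The log2 fold change ran from −1.63 to −1.34 when each library was left out in turn, with an adjusted p of at most 0.0464. *B4galnt2*, which places N-acetylgalactosamine on terminal chains and was the most abundant gene of this list, was at 702 ± 28.0 and 767 ± 79.1 CPM (log2 fold change 0.13, SE 0.08, adjusted p = 0.392). *B3galt5* and *B4galt1*, which add the galactose to type 1 and type 2 chains, were at −0.13 (adjusted p = 0.778) and 0.04 (0.801).

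Interleukin 22 is known to raise *Fut2* in gut epithelium. Of the 8 genes of this axis 7 were tested and 0 passed. *Il22ra1*, its epithelial receptor, was at 39.1 ± 4.56 and 37.7 ± 5.08 CPM (log2 fold change −0.05, adjusted p = 0.802), and *Stat3* at 118 ± 16.8 and 118 ± 9.82 CPM (0.00, adjusted p = 0.993). The targets *Reg3b* (1.49, SE 0.75, adjusted p = 0.310) and *Reg3g* (1.26, SE 0.62, adjusted p = 0.305) were far higher in *EPR* cKO 6 than in any other library, at 2917 and 759.8 CPM. Without that library their log2 fold changes were 0.14 (adjusted p = 0.914) and 0.44 (0.724). *Il22* itself lay below the filter. Over all 39 genes of these pathway lists 35 were tested, 1 fell and 0 rose, with a median log2 fold change of 0.03.

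Levels between genes were compared as CPM per kilobase of summed exon length. In *EPR* fl/fl colon *Gmds* was the highest at 145 ± 12.7, followed by *Fut2* (51.6 ± 5.64), *Tsta3* (48.9 ± 2.49), *Slc35c1* (34.2 ± 2.99), *Fut8* (23.8 ± 2.68), *Fut4* (13.7 ± 1.96), *Pofut2* (11.8 ± 0.604), *Pofut1* (6.27 ± 0.336), *Fut11* (2.95 ± 0.239) and *Fut10* (0.835 ± 0.249). Neighbours in this order did not overlap, except *Fut2* with *Tsta3* and *Fut4* with *Pofut2*. In *EPR* cKO the order was the same apart from *Fut4*, which at 7.09 ± 1.36 was below *Pofut2* (11.5 ± 0.801) in every library and overlapped with *Pofut1* (6.29 ± 0.440). In *EPR* cKO *Tsta3* also overlapped with both *Fut2* and *Slc35c1*.

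**Figure D3:**
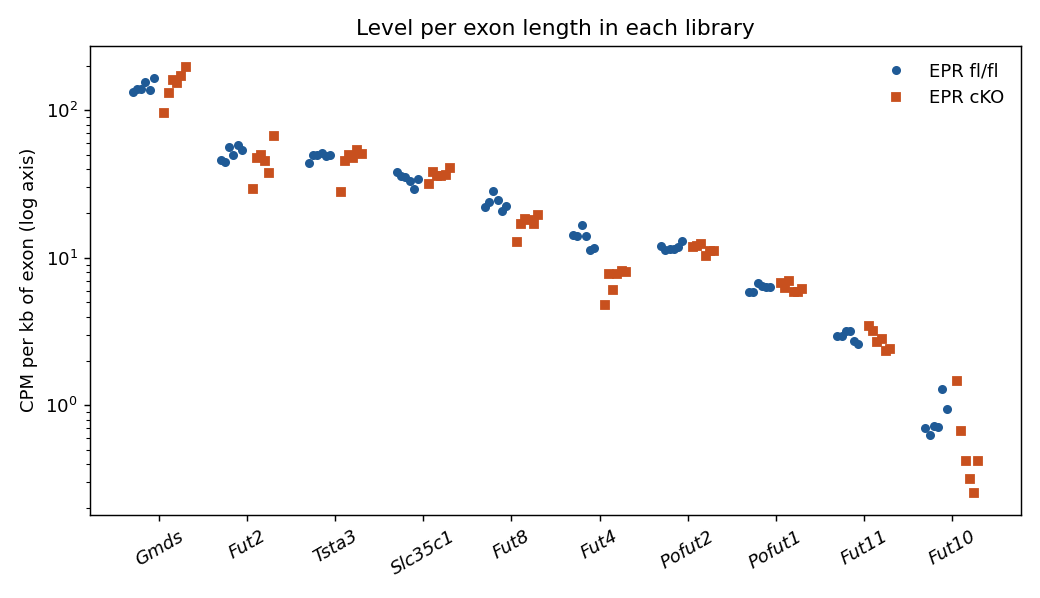
CPM per kilobase of exon for the 10 genes in each library on a log axis, ordered by the *EPR* fl/fl mean. *Fut4* moves from 13.7 in *EPR* fl/fl, beside *Pofut2*, to 7.09 in *EPR* cKO, beside *Pofut1*.

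Ratios within a library put the 2 falls beside the other enzymes. The log2 ratio of *Fut8* to *Fut2* was −0.865 ± 0.214 in the controls and −1.15 ± 0.221 in *EPR* cKO (two-sided exact permutation p = 0.0498, adjusted p = 0.0996 over 4 ratios), which did not pass the correction. The log2 ratio of *Fut4* to *Fut8* ran from −0.73 to −0.42 in the controls and from −1.37 to −0.84 in *EPR* cKO, without overlap. That of *Fut4* to *Fut2* ran from −1.90 to −1.21 and from −2.60 to −1.75, with overlap. The ratios of *Fut4* were chosen after the values were seen and were not tested.

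Whole tissue was sequenced, and fewer cells of a type and less RNA per cell cannot be told apart in these libraries. In isolated crypts the study found similar *Tff3* and *C1galt1* in both genotypes by qRT-PCR. From this and electron microscopy it proposed that goblet cells remain in *EPR* cKO colon. In the whole tissue counted here *Tff3* was lower. The 8 goblet cell markers were all below 0 and 5 of them fell, *Muc2* (−2.19, adjusted p = 0.000741), *Clca1* (−1.36, 0.0240), *Zg16* (−0.82, 0.0234), *Spdef* (−0.80, 0.0497) and *Tff3* (−0.53, 0.0170). Their summed level ran from 13357 to 28381 CPM in control colon and from 6136 to 8543 CPM in *EPR* cKO. It moved in the same direction as *Fut4*, *Fut8* and *Abo*, and its part in their falls was not tested. The 10 epithelium markers were all above 0 and 0 passed, with summed levels of 7577 to 11740 and 9291 to 14378 CPM. The 7 markers of absorptive colonocytes gave 0 calls, with 5 above 0 and summed levels of 7035 to 14073 and 11159 to 20887 CPM.

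Cells outside the epithelium varied among the *EPR* cKO libraries. The 7 smooth muscle markers summed to 2763 to 4861 CPM in *EPR* fl/fl, to 8294 CPM in *EPR* cKO 1 and to 918 to 2416 CPM in the other *EPR* cKO libraries. Adipocyte markers summed to 159 to 454 CPM in *EPR* fl/fl, 283 CPM in *EPR* cKO 1 and 35.6 to 103 CPM in the others. The tissue composition score, the mean log2 CPM of epithelium markers minus that of smooth muscle markers, was 0.659 ± 0.276 in the controls and 1.87 ± 1.35 in *EPR* cKO (two-sided exact permutation p = 0.0606). It was −0.58 in *EPR* cKO 1 and at least 1.47 in the others. Without *EPR* cKO 1 the groups did not overlap in this score (exact permutation p = 0.00433). That library was singled out by its tissue markers, which make up the score. This p-value therefore follows from the choice and is no separate result. The markers of enteric neurons and glia, endothelium, macrophages, T cells, and B and plasma cells gave 0 calls with all 12 libraries. Without *EPR* cKO 1, 3451 of 15836 tested genes were called, 2273 lower and 1178 higher. Called lower in that fit were 5 of 7 markers of neurons and glia, 2 of 5 of endothelium and 4 of 4 of adipocytes. So was 1 of 6 of macrophages, a count too small to set apart from the share over all genes. Of the T cell and the B and plasma cell markers 0 were called. Pancreas markers summed to at most 3.95 CPM in control colon and 0.381 CPM in *EPR* cKO.

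*EPR* cKO 1 was the lowest library of its group for *Fut2*, *Fut4*, *Fut8*, *Gmds*, *Tsta3*, *Slc35c1* and *Abo*, and the highest for *Fut10* and *Fut11*. Without it, 21.8% of tested genes were called, and of the members *Fut4* (−0.87, adjusted p = 0.000399), *Fut8* (−0.42, 0.00372) and *Fut10* were lower. Of the 35 other pathway genes tested, *Abo* (−1.37, 0.00246), *Mfng* and *Man2a2* were then lower and *Mpi* and *Pmm1* higher, while 7 of 7 smooth muscle markers were lower and 5 of 10 epithelium markers higher. With the score as a covariate over all 12 libraries, 2% of tested genes were called, and of the members *Fut4* (−1.21, adjusted p = 0.000275), *Fut8* (−0.65, 0.00562) and *Tsta3* (−0.40, 0.0268) were lower. With the score as a covariate and without *EPR* cKO 1, 5 genes of all were called and no member, and the log2 fold changes were −1.07 for *Fut4* (adjusted p = 0.186) and −0.45 for *Fut8* (0.548). The SE for *Fut4* was 0.22 there, against 0.11 without *EPR* cKO 1 and without the score. Since the groups did not overlap in the score without *EPR* cKO 1, genotype and score cannot be told apart in that fit. *Tsta3* was at −0.15 (0.818) and *Abo* at −0.69 (0.740) in that fit.

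**Figure D4:**
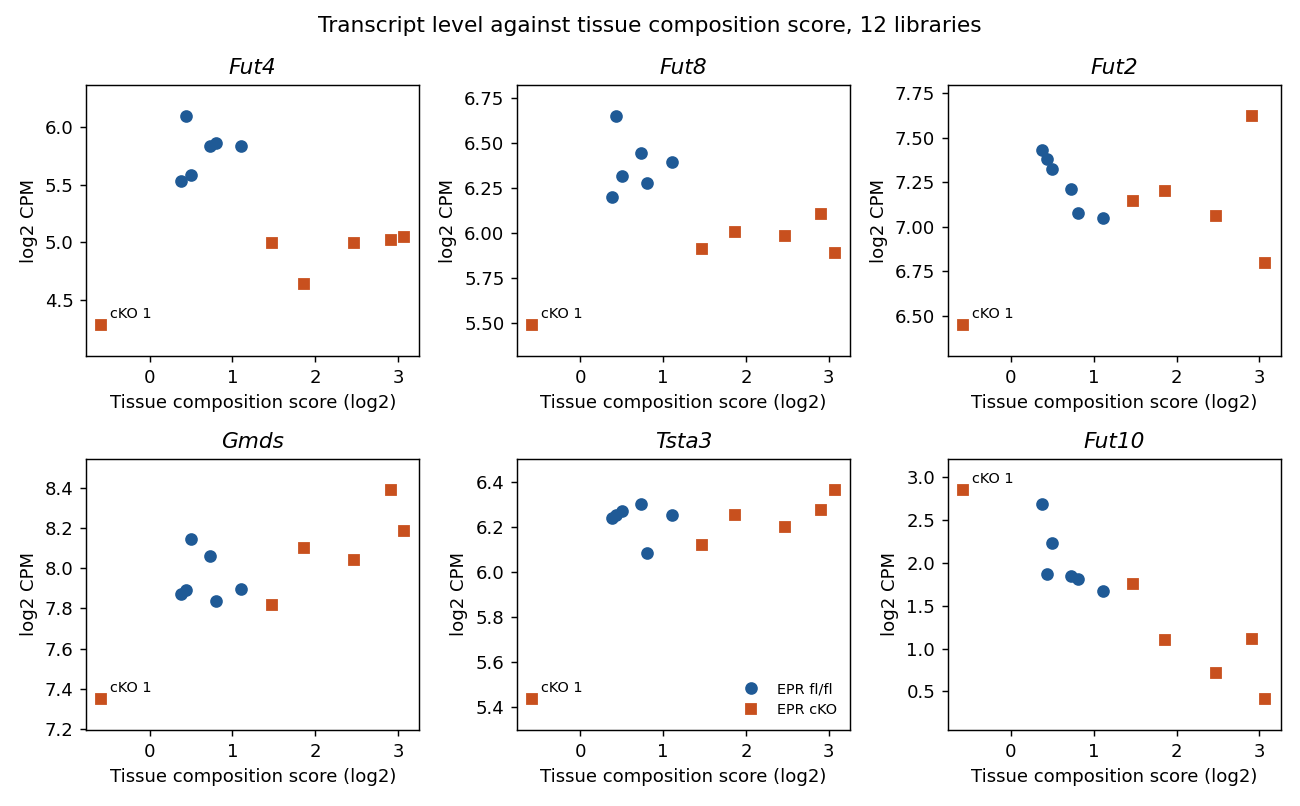
Log2 CPM of 6 of the genes against the tissue composition score in the 12 libraries, with *EPR* cKO 1 marked. *EPR* cKO 1 lies at −0.58, while the other *EPR* cKO libraries lie at 1.47 or above and the *EPR* fl/fl libraries between 0.379 and 1.11.

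The call of *Fut4* held in the 9 other ways of processing all 12 libraries, with adjusted p-values up to 0.0272, and in the 12 leave-one-out fits. *Fut8* was past 0.05 in 8 of the 9 and in 6 of the 12. The direction of both was the same in all of these 21 fits. The other 8 members were not called in any of them, apart from *Fut10* without *EPR* cKO 1 and with quality weights, and *Tsta3* with the composition covariate.

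**Figure D5:**
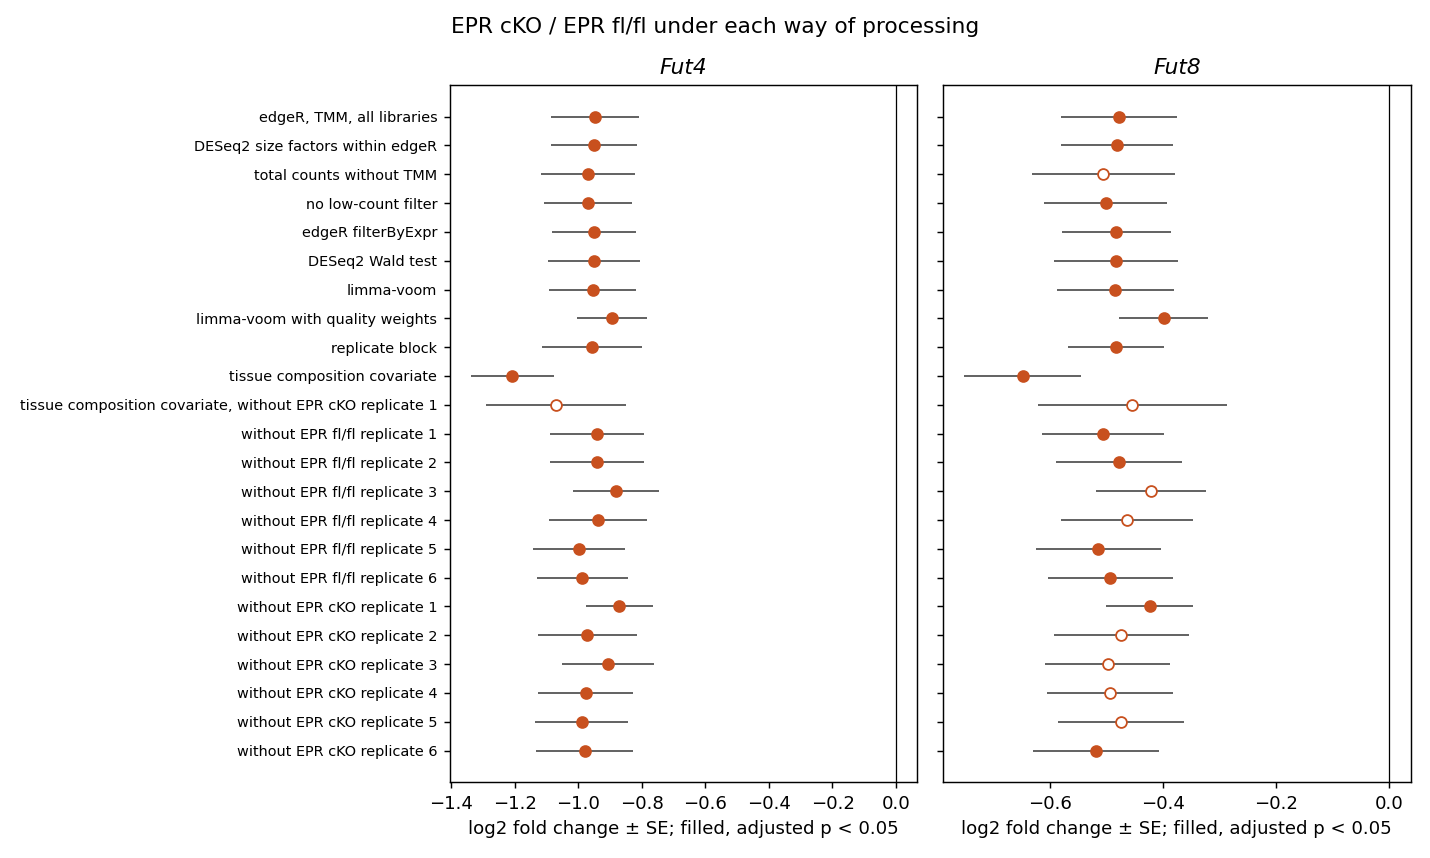
Log2 fold change ± SE of *Fut4* and *Fut8* under each way of processing and without each library in turn, filled where the adjusted p was under 0.05. All *Fut4* points but 1 are filled, that 1 being the composition covariate without *EPR* cKO 1 (adjusted p = 0.186), and the *Fut8* points lie between −0.65 and −0.40 with 8 open.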

How the data were processed

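Libraries were prepared by the authors from rRNA-depleted total RNA of whole proximal colon, with 1 library per mouse. Per the methods and labels, reads were trimmed with Trimmomatic, aligned to mm10 with STAR 2.5.3a and assigned to Ensembl genes with featureCounts. The authors deposited 1 table of read counts per gene, neither normalized nor filtered. Strand use in counting is not given in the sources used here.

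Counts were scaled by TMM and tested in R 4.3.3 with the quasi-likelihood F test of edgeR 4.0.16, *EPR* cKO against *EPR* fl/fl with no covariate. Genes with at least 1 CPM in at least 4 of 12 libraries entered (15952 of 36694 with any count), and p-values were adjusted over them by the Benjamini-Hochberg method. SE was the absolute log2 fold change divided by the square root of F. Ratios and the composition score were compared by two-sided exact permutation tests over libraries, whose smallest p is 0.00216. Depth bears most on genes with few counts, such as *Fut10* and *Abo*. Counts of any pair of libraries of 1 group differed by more than sampling noise.

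Alternatives were DESeq2 size factors, total counts, no filter, filterByExpr, DESeq2 1.42.0, limma 3.58.1 (voom) with and without quality weights, a replicate block, the composition covariate and leaving out each library. The covariate without *EPR* cKO 1 was added after seeing the data. Named genes were *EPR*, the 10 members, the listed pathway and marker genes, and the 3 genes most like *Fut2* and *Fut8*. The antisense gene of *Fut8* was added after its values were seen. The members and lists were chosen with earlier results of these data known. Motifs were searched in RefSeq promoter windows of GRCm38.p6.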

Additional observations from a re-analysis of the deposited data

Results flagged for a closer look

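In 34 sets of 6 library values, 4 had a library far from the other 5, where chance gives about 1.7. *Tsta3* was at 67.8 CPM in *EPR* fl/fl 1 and between 75.4 and 78.9 CPM in the other controls. *Tsta3* was at 43.2 CPM in *EPR* cKO 1 and between 69.5 and 82.3 CPM in the other *EPR* cKO libraries. *Fut10* was at 7.14 CPM in *EPR* cKO 1 and between 1.24 and 3.30 CPM in the others. *EPR* (*Smim31*) was at 0.423 CPM in *EPR* cKO 2, above the other *EPR* cKO libraries (0 to 0.134 CPM) and below all controls.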

How the results depend on the processing

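Called members numbered 2, 1 with total counts, 3 with quality weights and 3 with the composition covariate over all 12 libraries. They numbered 0 with the composition covariate without *EPR* cKO 1, and 1 to 3 in fits that left out 1 library. In the fit with the covariate and without *EPR* cKO 1, *Fut4* was at −1.07 (adjusted p = 0.186) and *Fut8* at −0.45 (0.548). Genotype and score cannot be told apart in that fit. *Fut8* was also not past 0.05 with total counts (−0.51, 0.0634), and ran from −0.52 to −0.42 in fits that left out 1 library. Genes called numbered 392, 913 with DESeq2, 3263 with quality weights, 245 with the replicate block, 5 with the covariate without *EPR* cKO 1, and 176 (without *EPR* fl/fl 4) to 3451 (without *EPR* cKO 1) in fits that left out 1 library. The cause was not tested.

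The sign of 7 members and of 1 ratio turned in some fits, among them *Fut10*, which was at −0.51 with all libraries and no covariate. With the covariate, *Fut10* was at 0.063, *Fut11* 0.083, *Pofut2* 0.0032, *Gmds* −0.27 and *Slc35c1* −0.0056. With the covariate and without *EPR* cKO 1, *Fut2* was at 0.046, *Fut10* 0.16, *Fut11* 0.15, *Pofut2* 0.11 and *Gmds* −0.20. *Pofut1* was at −0.029 with total counts, −0.018 without the filter and −0.00023 with DESeq2, and ran from −0.032 to 0.025 in fits that left out 1 library, as *Gmds* did from −0.025 to 0.15. The difference in the log2 ratio of *Slc35c1* to *Gmds* ran from −0.025 (without *EPR* cKO 1) to 0.12 in those fits. The difference in the composition score ran from 0.969 to 1.70 (without *EPR* cKO 1).

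The replicate numbers gave no clear pairing of the mice: same-numbered deviations correlated from −0.24 to 0.34, and 2 of 6 controls were most like their own number. So few values cannot exclude a pairing. With the replicate block *Fut4* was at −0.96 (adjusted p = 0.0272) and *Fut8* at −0.48 (0.0343).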
